A study of Mus musculus with 8 samples.

Results

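The genes of plasma lipoproteins described here, 10 in number, were followed by symbol in the TPM table and by identifier in the count table. They were Apob, Mttp, Apoe, Apoa1, Apoa2, Apoa4, Apoc1, Apoh, Apom and Lcat, taken by name. All 10 were present, of 54446 genes listed, and 6 of the 10 had enough counts to be tested. The cells were Hepa1-6, a mouse hepatoma line whose strain is labelled C57BL/6, kept in DMEM with fetal bovine serum. The 4 groups of 2 libraries were untreated control cells, cells given TMAO (trimethylamine N-oxide, an oxidised amine that the liver makes from a gut bacterial product) at 50 µM for 24 h, cells given TNF-α, a cytokine of inflammation, at 50 ng/ml for 24 h, and cells given both at those doses for 24 h. No genetic change was labelled in any group. For the combined group the titles and treatment protocol give TMAO and TNF-α, although its treatment label has TMAO in the place of each agent. Each group has a library 14 and a library 16, numbers that the labels leave unexplained. Separate cultures are not stated, and the p-values therefore reflect the spread between the libraries alone, which may be technical.

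Lipoproteins carry cholesterol and triglyceride through plasma in a shell of phospholipid and apolipoproteins, and the liver and intestine secrete them. Apolipoprotein B is the structural protein of very low density lipoprotein, and the microsomal triglyceride transfer protein, encoded by Mttp, loads lipid onto it in the endoplasmic reticulum. Apolipoproteins A-I and A-II are the main proteins of high density lipoprotein (HDL), on which the enzyme made from Lcat esterifies cholesterol, and apolipoprotein E is the ligand by which receptors take up remnant particles.

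The libraries held 24736746 (TNF-α 16) to 30488605 (TMAO 16) counts. TNF-α 16 stood apart: over genes of at least 10 CPM (counts scaled to library size) the log2 differences of library 16 from library 14 had an SD of 0.58 in the TNF-α group, 0.18 in the control group, 0.12 in the combined group and 0.086 in the TMAO group. It also had the fewest genes with a count, 20815 against 22253 to 22917 in the other libraries. Summed CPM of 22 ribosomal protein genes was 34529 in the highest TNF-α library, against 19523 to 23256 in the control, TMAO and combined libraries. Of 10 hepatocyte markers 5 averaged at least 1 CPM. Alb (347 to 1228 CPM) and Afp (595 to 1591 CPM) led them, before Hnf4a (112 to 214 CPM), Fgb (22.5 to 81.7 CPM) and Trf (1.06 to 2.57 CPM). Serpina1b and Ahsg stayed under 1 CPM, and Ttr, Fga and Serpina1a were at 0.169 CPM or less. Leukocyte markers Ptprc (at most 0.304 CPM) and Tyrobp (1 count in all) were near 0, although Cd68, Csf1r and Cd14 were detected. All 6 endothelial markers averaged under 1 CPM, with Lyve1 at 0. Of the fibroblast markers Dcn reached 1277 to 1805 CPM while Col3a1 was at 0, and of the enterocyte markers Vil1 reached 219 to 285 CPM while Cdx2 was at most 0.138 CPM.

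In untreated cells apolipoprotein expression was uneven (plot of levels in control libraries). On the scale of TPM, which corrects for gene length, Apoe averaged 1439 ± 112 (SD, n = 2), rank 94 among the listed symbols. Apob averaged 37.1 ± 10.8 TPM and Mttp 18.0 ± 0.879 TPM, and those 2 assembly genes lay above 91.4% and 86.7% of listed symbols. Lcat at 3.17 ± 0.338 TPM and Apoa2 at 2.99 ± 0.578 TPM were low and did not differ beyond their spread. Apoa1, the gene of the principal HDL protein, averaged 0.524 ± 0.184 TPM, and Apom, whose product carries sphingosine 1-phosphate on HDL, 0.369 ± 0.345 TPM, again within their spread of one another. Apoc1, which encodes a small exchangeable apolipoprotein, averaged 0.166 ± 0.0157 TPM, and Apoh, the gene of beta2-glycoprotein I, 0.0309 ± 0.0437 TPM. Apoa4 was listed at 0 in all 8 libraries.

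**Figure D1:**
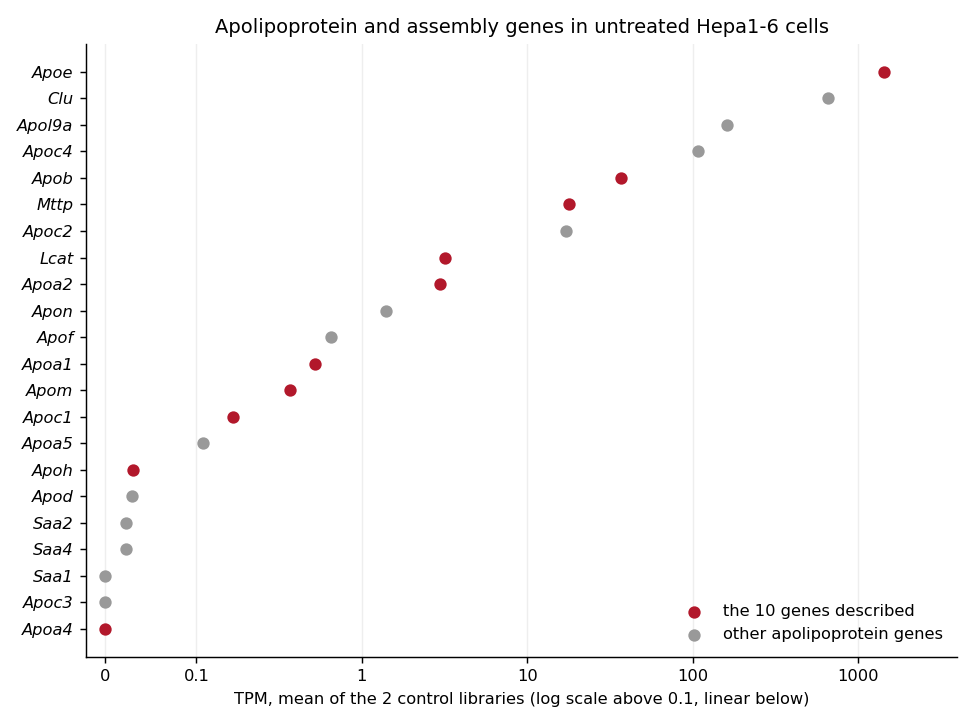
TPM of the 10 genes (red) and of 12 other apolipoprotein genes (grey), mean of the 2 control libraries, on an axis that is logarithmic above 0.1 and linear below. Apoe, at 1439 TPM, stands highest, and Apoa1 at 0.524 TPM and Apoa4 at 0 lie far below it. Apoc2 (17.2 TPM) and Apoc4 (108 TPM) share exon bases with Gm44805 on the same strand, and their control means by counts were 0.615 and 11.1 CPM.

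Promoter sequence is shown for Mttp, Apoe and Apob, the 3 most expressed of the 10. RefSeq windows on build GRCm38.p6 were held for 9 of the 10 genes, and the 250 bases before the start are printed in the gene's direction. The pattern searched begins with GGG and ends with CC with 5 bases of any kind between. It is a loose form of the site bound by NF-κB, the transcription factor that TNF-α activates. Capitals mark matches to that pattern on either strand, joined where they overlap. Such a match was in 45.8% of all 32851 windows of that length, so it is a description of these letters and not a site.
Mttp, chr3:138143419-138143668, minus strand: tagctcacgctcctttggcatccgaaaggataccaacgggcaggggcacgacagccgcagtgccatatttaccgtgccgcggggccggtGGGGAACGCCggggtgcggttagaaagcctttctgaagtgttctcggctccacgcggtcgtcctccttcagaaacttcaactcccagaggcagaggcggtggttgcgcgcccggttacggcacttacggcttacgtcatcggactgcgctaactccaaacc
Apoe, chr7:19699189-19699438, minus strand: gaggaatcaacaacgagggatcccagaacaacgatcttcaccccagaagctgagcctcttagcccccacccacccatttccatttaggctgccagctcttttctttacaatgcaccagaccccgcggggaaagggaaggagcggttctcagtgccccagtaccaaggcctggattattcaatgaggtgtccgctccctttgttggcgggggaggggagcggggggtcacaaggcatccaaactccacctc
Apob, chr12:7977427-7977676, plus strand: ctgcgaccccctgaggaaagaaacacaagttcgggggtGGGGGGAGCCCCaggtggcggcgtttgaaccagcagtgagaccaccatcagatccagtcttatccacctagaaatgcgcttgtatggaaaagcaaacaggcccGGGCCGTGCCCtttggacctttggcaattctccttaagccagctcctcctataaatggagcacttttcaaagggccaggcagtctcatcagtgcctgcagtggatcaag
The Mttp window has 1 match, 161 bases before the start. Apob has 2, at 212 and 109 bases, and a TATAAA box at 60 bases, a motif in 12.4% of windows. The Apoe window printed, of the outermost of its 3 listed starts, has none, while the windows of its other starts have 1 each.

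The 4 genes with too few counts to test stayed low with every treatment. Apoa1 had 10 and 9 counts in the control libraries, 5 and 8 with TMAO, 3 and 7 with TNF-α, and 0 and 5 with both. Those 47 counts in total are too few for a fold change. Apoc1 had 8 counts over all 8 libraries, Apoh had 4 and Apoa4 had 0, where a count of 0 allows up to 0.0993 to 0.124 CPM per library (3 counts, counting error only). The TPM values come from another estimate than the counts, as Apoa1 was listed at 0 TPM in TNF-α 14 with 3 counts. Apom passed the low count filter with 71 counts, 4 and 15 in control, 14 and 9 with TMAO, 8 and 3 with TNF-α, and 9 and 9 with both, and its 4 libraries with TNF-α overlapped the 4 without. It passed no comparison and is given by its counts only.

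The questions that the design poses are what each agent does alone and together, and the effect of TNF-α was taken with and without TMAO and as the average of both. In that average Mttp was the only gene of the 6 tested that passed edgeR's quasi-likelihood test at an adjusted p of 0.05, beside 9.2% of all 15613 genes tested. A count of 1 gene in 6 is not read as a result about the 6. The median log2 fold change of the 6 genes was -0.43, against 0.0032 over all genes tested, and it was -0.12 without control 16 and -0.26 without TNF-α 16. That median lies midway between Mttp (-0.37) and Apom (-0.49 ± 0.50, from 71 counts), while Apoa2 (1.07) and Lcat (0.38) were higher. It is therefore not read as a shift of the 6. In TNF-α against control none of the 6 passed, beside 4.05% of all genes, and in the combined group against TMAO none passed, beside 3.64%. At an unadjusted p under 0.05 by edgeR there were 2 of the 6 in the first (Mttp and Apoa2) and 4 in the second (Mttp, Apoe, Apoa2 and Lcat), beside 15.2% and 13.8% of all genes. DESeq2 called 0 and 1 (Apoe) of the 6, beside 872 and 824 genes of the whole table, and limma-voom called 0 in both, beside 637 and 564. The CPM of the 4 libraries with TNF-α and the 4 without it did not overlap for Mttp, which was lower, and for Apoa2 and Lcat, which were higher (3 of 6, beside 20% of all genes). In bulk RNA fewer cells of a type and less RNA per cell cannot be told apart.

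**Figure D2:**
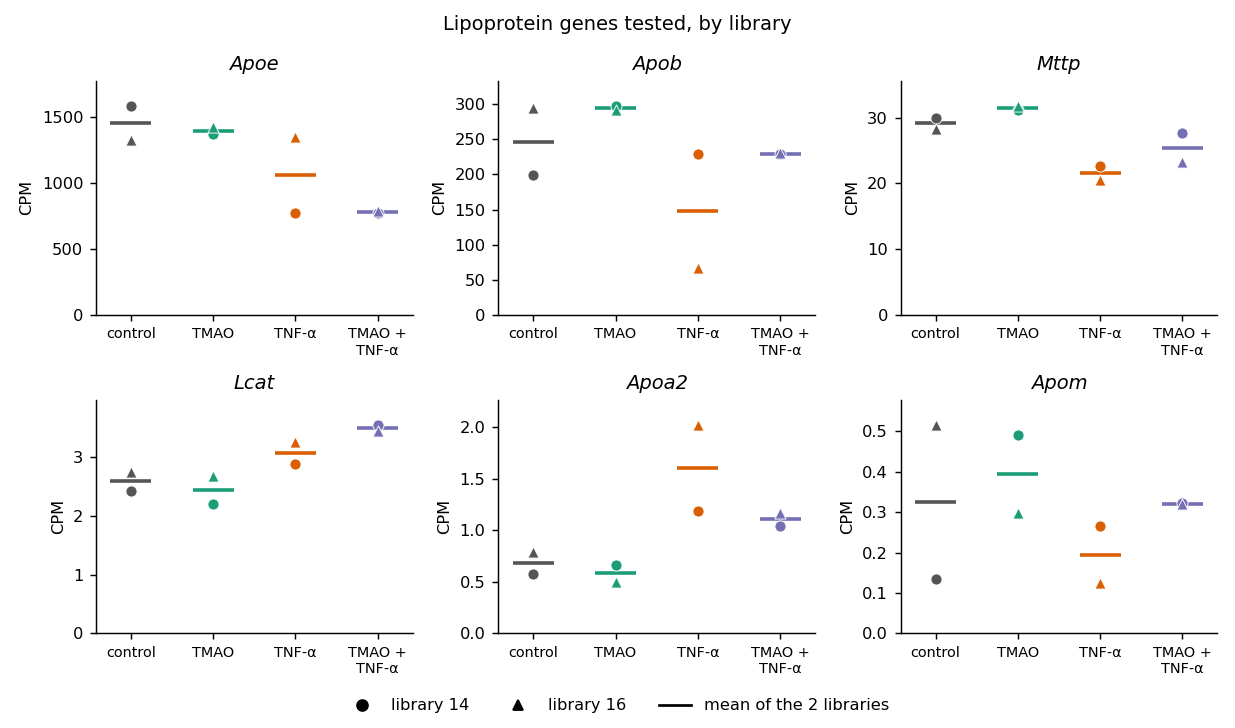
CPM in each library (circle, library 14; triangle, library 16; bar, mean of 2) for the 6 tested genes by group, each axis starting at 0. Mttp lies at 20.5 to 27.6 CPM in the libraries with TNF-α and at 28.3 to 31.8 CPM in those without, while Apob and Apoe differ widely between the TNF-α libraries.

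Mttp (ENSMUSG00000028158.14) encodes the lipid transfer subunit without which apolipoprotein B is degraded. It stood at 29.9 and 28.3 CPM in control libraries, 31.2 and 31.8 with TMAO, 22.6 and 20.5 with TNF-α, and 27.6 and 23.2 with both. All 4 libraries without TNF-α were above all 4 with it. Averaged over TMAO, Mttp fell by 0.37 ± 0.087 on the log2 scale (SE, 0.77-fold, adjusted p = 0.0416 by edgeR). The difference was -0.44 ± 0.12 for TNF-α against control (adjusted p = 0.132) and -0.31 ± 0.12 for both against TMAO (adjusted p = 0.317), neither of them past the test. The averaged call was lost on leaving out any single library of the control, TMAO or combined groups (log2 fold change -0.43 to -0.30). The call was kept without TNF-α 14 (-0.41) or without TNF-α 16 (-0.34). Either of these fits leaves 1 library in the TNF-α group. It takes the pair that differed most over all genes out of the shared spread. Without TNF-α 14 the averaged comparison called 7444 genes of the whole table. Over all genes the TNF-α libraries differed most from one another, but for Mttp itself the log2 difference of library 16 from library 14 was -0.25 in the combined group and -0.14 in the TNF-α group. DESeq2 and limma-voom also called it (adjusted p = 0.0266 and 0.0389), whereas total-count scaling (adjusted p = 0.0549) and limma on log2(TPM + 1) (-0.37, adjusted p = 0.227) did not. Exons of Mttp share 457 bases with Trmt10a and 132 with Gm43691 on the opposite strand, and no source used here gives the strand setting of the counts, so a part of its reads could belong to those genes.

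Apob (ENSMUSG00000020609.14) was set apart by 1 library. Its CPM was 199 and 295 in control libraries, 297 and 291 with TMAO, 229.9 and 66.5 with TNF-α, and 229.6 and 230.2 with both. TNF-α 16 was far below the other 7 libraries, and TNF-α 14 lay within the range of the combined libraries and between the control libraries. The log2 fold change for TNF-α against control was -0.74 ± 0.50 (adjusted p = 0.567), with a 95% confidence interval from -1.92 to 0.45. It was -0.10 without TNF-α 16 (adjusted p = 0.834) and -1.90 without TNF-α 14 (adjusted p = 0.0042, with 7971 of all genes called), so that value followed from which library was kept. Both against TMAO differed by -0.36 ± 0.50 (adjusted p = 0.977), although the groups do not overlap (beside 62.6% of all genes), and the averaged difference of -0.55 ± 0.35 did not pass either (adjusted p = 0.491). With TNF-α 16 and control 14 both left out the averaged difference was -0.35. The spread of that fit rests on the TMAO and combined libraries, since the control and TNF-α groups then hold 1 library each. A replicate spread like that of the other groups is assumed for those lone libraries.

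Apoe (ENSMUSG00000002985.16) had the highest level and the same split. It stood at 1586 and 1326 CPM in control libraries, 1374 and 1424 with TMAO, 776 and 1354 with TNF-α, and 770.3 and 789 with both. TNF-α 14 and both combined libraries lay between 770.3 and 789 CPM, and TNF-α 16 lay within the range of untreated cells. The averaged log2 fold change was -0.65 ± 0.18 (0.64-fold, adjusted p = 0.0766 by edgeR), with -0.45 ± 0.25 for TNF-α against control (adjusted p = 0.478) and -0.84 ± 0.25 for both against TMAO (adjusted p = 0.16). DESeq2 gave the averaged difference as -0.65 with an adjusted p of 0.00428. The averaged difference also passed by edgeR without a filter on low counts and with an offset by gene length, beside 1792 and 2061 of all genes. It was not called by limma-voom, with scaling by DESeq2 size factors or by total counts, or with the replicate block. Nor was it called with the filter of at least 1 CPM in 2 libraries, or without any single control, TMAO or combined library. The averaged difference of Apoe was -0.88 without TNF-α 16 and -0.47 without TNF-α 14, with 1 library left in that group. In the authors' TPM values Apoe was 1518 and 1359 in control, 1392 and 1441 with TMAO, 793 and 1070 with TNF-α, and 794 and 844 with both. The libraries with and without TNF-α did not overlap there, but they overlapped in CPM. The share of all genes without overlap in TPM was not computed. Limma on log2(TPM + 1) gave -0.72 ± 0.10 (adjusted p = 0.0129). Limma on log2(TPM + 0.1), and on log2(TPM + 1) without the filter on low values, also called Apoe.

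Apoa2 and Lcat, both of HDL, had higher values with TNF-α, at low levels, and neither passed the test. Apoa2 (ENSMUSG00000005681.12) stood at 0.574 and 0.793 CPM in control libraries, 0.666 and 0.497 with TMAO, 1.19 and 2.03 with TNF-α, and 1.04 and 1.17 with both, from 15 to 49 counts each. Each library with TNF-α was above each library without it. The averaged log2 fold change was 1.07 ± 0.27 (2.1-fold, adjusted p = 0.0524 by edgeR), which missed the threshold, with 1.22 ± 0.37 for TNF-α against control (adjusted p = 0.162) and 0.93 ± 0.38 for both against TMAO (adjusted p = 0.344). It passed under 6 of the other settings, among them total-count scaling, no filter on low counts and an offset by gene length. The 6 include leaving out either TNF-α library, which leaves 1 library in that group. Such a fit takes the pair that differed most over all genes out of the shared spread. Apoa2 did not pass with DESeq2, limma-voom, scaling by DESeq2 size factors, the replicate block or limma on log2(TPM + 1). Nor did it pass without any single control, TMAO or combined library, or with a TNF-α and a control library both left out. Lcat (ENSMUSG00000035237.7) was at 2.43 and 2.76 CPM in control, 2.21 and 2.68 with TMAO, 2.88 and 3.27 with TNF-α, and 3.56 and 3.44 with both. Its averaged difference of 0.38 ± 0.14 on the log2 scale did not pass (adjusted p = 0.167).

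**Figure D3:**
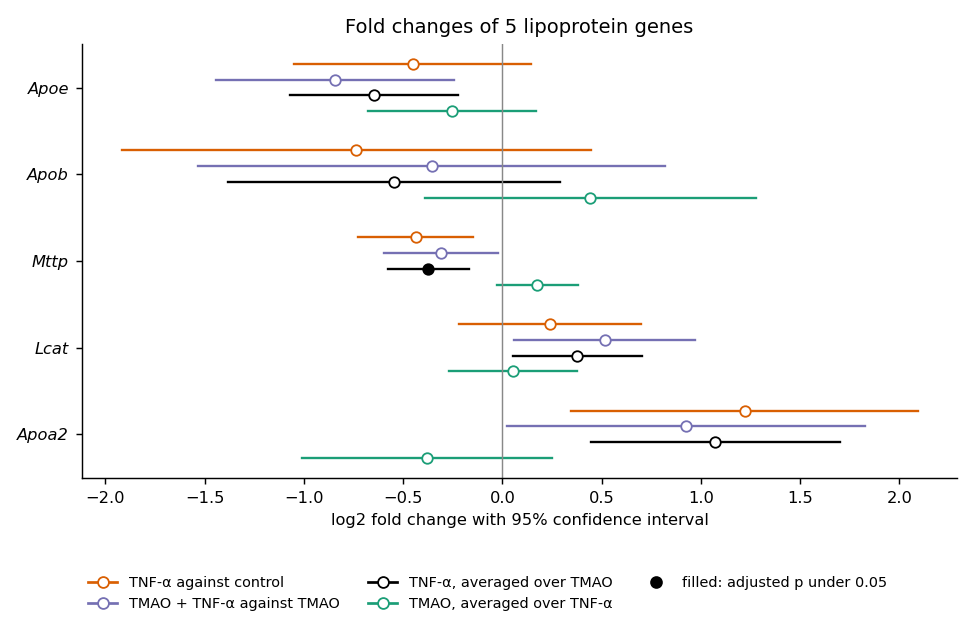
Log2 fold change of 5 genes in 4 comparisons, as points with 95% confidence intervals from edgeR, filled where the adjusted p is under 0.05. The averaged fall of Mttp by 0.37 is the single filled point, and the interval of Apob for TNF-α against control runs from -1.92 to 0.45.

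The TNF-α libraries differed from one another by gene length, and the 5 genes span that range (plot of the difference by length). Library 16 minus library 14 had a median log2 difference of 0.79 for genes with under 1000 exon bases and of -0.60 for 1838 genes with 8000 or more. In the TMAO and combined groups the same medians lay between -0.031 and 0.011, and in the control group they ran the other way, from -0.20 to 0.15. Apob, with 13934 exon bases, differed by -1.79 in the TNF-α group, a difference that 2.23% of the genes with 8000 or more bases matched or passed, and by 0.56 in the control group. Apoe (2138 bases) differed by 0.80, Apoa2 (537 bases) by 0.73, Lcat (1342 bases) by 0.18 and Mttp (6206 bases) by -0.14. With an offset for gene length in each library, the averaged fold change stayed at -0.33 for Mttp (adjusted p = 0.027), was -0.71 for Apoe (adjusted p = 0.00513) and 0.97 for Apoa2 (adjusted p = 0.0408), and was -0.50 for Apob (adjusted p = 0.198).

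**Figure D4:**
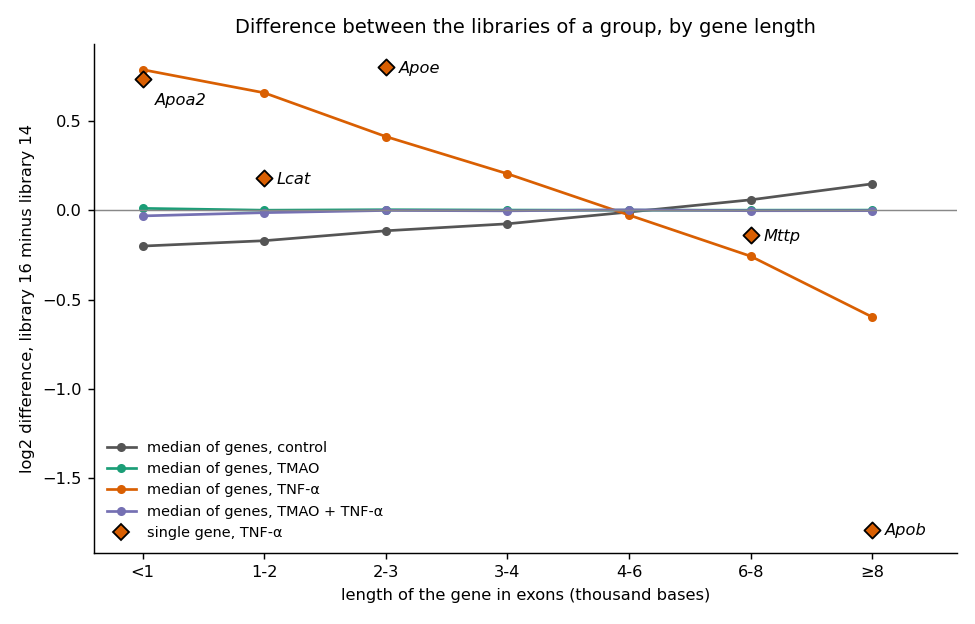
Median log2 difference between library 16 and library 14 of each group in 7 classes of exon length (lines), with 5 single genes of the TNF-α group as diamonds. The TNF-α line runs from 0.79 for the shortest genes to -0.60 for the longest, and Apob lies at -1.79.

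The summed level of the 10 hepatocyte markers was 2799 to 3114 CPM in the 4 libraries without TNF-α and 1111 to 1410 CPM in the 4 with it, in the direction of Mttp and of Apoe in 3 of 4 libraries. Hnf4a, also listed with the transcription factors, is 1 of them. Summed markers of 3 other cell types were also lower in all 4 libraries with TNF-α, by less. They ran from 66.0 to 70.7 CPM without it and from 50.8 to 56.1 CPM with it for cholangiocytes, from 1669.8 to 1825 and from 1299.7 to 1478 CPM for fibroblasts, and from 274 to 286 and from 219 to 229.6 CPM for enterocytes. Leukocyte and endothelial markers overlapped. In level the sums rest mostly on a few genes. These were Alb (347 to 1228 CPM) and Afp (595 to 1591 CPM) for hepatocytes and Sox9 (42.6 to 49.0 CPM) for cholangiocytes. For fibroblasts it was Dcn (1277 to 1805 CPM) and for enterocytes Vil1 (219 to 285 CPM). Sox9 spanned a narrower range than the cholangiocyte sum, in which Krt7 ran from 2.55 to 8.82 CPM and Epcam from 4.40 to 13.7 CPM. The gene with the highest level therefore need not carry the difference in a sum, and single markers of each list need not move with its sum. The part of these markers in the results was not tested.

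For TMAO no gene of the whole table passed by edgeR. In TMAO against control, both against TNF-α, TMAO averaged over TNF-α and the interaction, 0 of the 6 genes passed by edgeR, beside 0% of all genes. At an unadjusted p under 0.05 there were 184, 549, 453 and 184 genes over the whole table (1.18%, 3.52%, 2.9% and 1.18%), and none of the 6 genes was among them. DESeq2 called 4, 0, 4 and 0 genes of the whole table and limma-voom 0 in each, none of them among the 6. TMAO against control differed by 0.11 ± 0.12 for Mttp, 0.25 ± 0.50 for Apob and -0.06 ± 0.25 for Apoe on the log2 scale. The intervals ran from -0.18 to 0.40 for Mttp, -0.92 to 1.43 for Apob and -0.65 to 0.54 for Apoe, and changes within them were not detectable at this spread. In cells with TNF-α, adding TMAO differed by 0.24 ± 0.12 for Mttp (adjusted p = 0.569), with both combined libraries above both TNF-α libraries, beside 34.4% of all genes not overlapping. The interaction was 0.13 ± 0.17 for Mttp, 0.38 ± 0.70 for Apob and -0.39 ± 0.36 for Apoe (adjusted p = 0.953 each). Without TNF-α 14, whose loss leaves TNF-α 16 to stand for its group, Apob (1.81), Apoe (-0.77) and Mttp (0.33) passed in both against TNF-α, and Apob and Apoe passed in the interaction. In that setting 8068 and 5788 of all genes passed as well, so these calls are not read as a result about the 6. Without TNF-α 16 no gene of the 6 passed in either.

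Cells given both agents were also set against control cells, with 3.49% of all genes called and none of the 6 by edgeR. At an unadjusted p under 0.05 there was 1 of the 6, Apoe, beside 13.5% of all genes, a share near 1 in 6. DESeq2 called Apoe too, with 805 genes of the whole table, and limma-voom did not, with 544. Apoe had the lowest p there, at -0.90 ± 0.25 on the log2 scale (0.54-fold, adjusted p = 0.136), and both combined libraries were below both control libraries (beside 57.1% of all genes not overlapping). For Apoe the difference was -0.89 and -0.90 with 1 or the other TNF-α library left out. Mttp differed by -0.20 ± 0.12 (adjusted p = 0.64), Lcat by 0.43 ± 0.19 (adjusted p = 0.407) and Apob by -0.10 ± 0.50 (adjusted p = 0.971). These comparisons share the control or combined libraries with those above.

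Genes around these 10 were described from 5 lists with 81 genes, not all of which had enough counts to be tested. Of their tested genes, numbered by list below, 15 passed in the averaged TNF-α comparison, beside 9.2% of all genes tested (plot of related genes). Nothing particular to a list is read from its counts. In the list of apolipoprotein B lipidation, editing and export 1 of 14 tested genes rose and 2 fell, with a median log2 fold change of -0.25. Apobec1 encodes the deaminase that edits the apolipoprotein B transcript so that a shorter protein is made. It stood at 34.5 and 35.1 CPM in control libraries, 32.4 and 31.8 with TMAO, 83.8 and 88.3 with TNF-α, and 87.3 and 86.6 with both, so that the 2 sets of 4 libraries were far apart and close within. It rose 2.59-fold (95% confidence interval 2.32 to 2.88, adjusted p = 8.2e-05) and passed without each of the 8 libraries in turn. Its fold changes were 2.47 for TNF-α against control (adjusted p = 0.00101), 2.71 for both against TMAO (adjusted p = 0.000733) and 2.50 for both against control (adjusted p = 0.00103). Editing itself was not measured here. Tm6sf2, which takes part in lipidating very low density lipoprotein, fell by 0.97 ± 0.21 (adjusted p = 0.0319) and Lpcat3, a phospholipid remodelling enzyme, fell by 0.41 ± 0.065 (adjusted p = 0.00934).

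Of the other apolipoproteins 1 of 6 tested genes fell and none rose (median -0.38). Clu, which encodes clusterin or apolipoprotein J, stood at 710 and 634 CPM in control libraries, 630 and 642 with TMAO, 376 and 540 with TNF-α, and 356 and 358 with both, and fell by 0.69 ± 0.13 (adjusted p = 0.0171). Apoc4, a gene of the Apoe cluster, was at 11.6, 10.5, 11.0 and 10.3 CPM in the 4 libraries without TNF-α and at 6.15 (TNF-α 14), 11.4 (TNF-α 16), 6.58 and 5.75 (both) with it. TNF-α 16 again lay with the libraries without TNF-α, as for Apoe, and the difference of -0.57 did not pass (adjusted p = 0.142). Exons of Apoc4 share 119 bases with Gm44805 on the same strand. The control mean of Apoc4 was 11.1 CPM but 108 TPM, so its counts may leave out reads, which was not tested. Apol9a, which has close paralogs that can share reads, differed by 0.34 (adjusted p = 0.17).

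In the list of HDL formation and remodelling 1 of 11 tested genes rose and 2 fell (median -0.40). The paraoxonases Pon2 and Pon3, lactonases, fell by 0.40 ± 0.082 (adjusted p = 0.0253) and 0.49 ± 0.11 (adjusted p = 0.042), and Bmp1, a protease that cleaves the proform of apolipoprotein A-I, rose by 0.34 ± 0.070 (adjusted p = 0.0265). Of lipoprotein receptors, lipases and their regulators 1 of 13 rose and 1 fell (median -0.12). The lipase gene Lpl fell by 0.50 ± 0.084 (adjusted p = 0.0118), while Angptl4, which encodes an inhibitor of that lipase, rose by 0.66 ± 0.14 (adjusted p = 0.0317).

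Of transcription factors that act on apolipoprotein genes 2 of 23 rose and 4 fell (median -0.17). Nr5a2 (LRH-1) stood at 31.9 and 31.0 CPM in control, 31.7 and 33.4 with TMAO, 69.6 and 47.8 with TNF-α, and 69.6 and 70.1 with both, and rose 2.00-fold (adjusted p = 0.00331). Nr1h4, the bile acid receptor FXR, rose 1.85-fold (adjusted p = 0.00504), from 4.19 to 5.08 CPM in the 4 libraries without TNF-α to 6.94 to 9.43 CPM in the 4 with it. Hnf4a, which binds the promoters of many apolipoprotein genes, stood at 209.1 to 213.8 CPM in the 4 libraries without TNF-α and 112 to 144 CPM in the 4 with it, and fell by 0.65 ± 0.093 (adjusted p = 0.00639). Foxa2 fell by 0.50, Nr2f2 by 0.48 and Onecut1 by 1.14 (adjusted p = 0.0265, 0.0122 and 0.0357), and exons of Onecut1, Nr2f2, Pon2 and Lpcat3 overlap another gene.

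Apobec1, Nr5a2 and Nr1h4 passed without each of the 8 libraries in turn and Hnf4a without 5 of them. The other 11 passed only where a TNF-α library was the one left out, as 3 or 4 of the 15 calls were kept without any 1 control, TMAO or combined library and all 15 without either TNF-α library. With the offset by gene length Bmp1 (adjusted p = 0.0539), Pon2 (0.126) and Lpl (0.19) no longer passed. Limma on log2(TPM + 1) called neither Nr5a2 (log2 fold change 0.70, adjusted p = 0.11) nor Hnf4a (-0.72, adjusted p = 0.132), and it called Apobec1 (1.31, adjusted p = 0.00126).

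**Figure D5:**
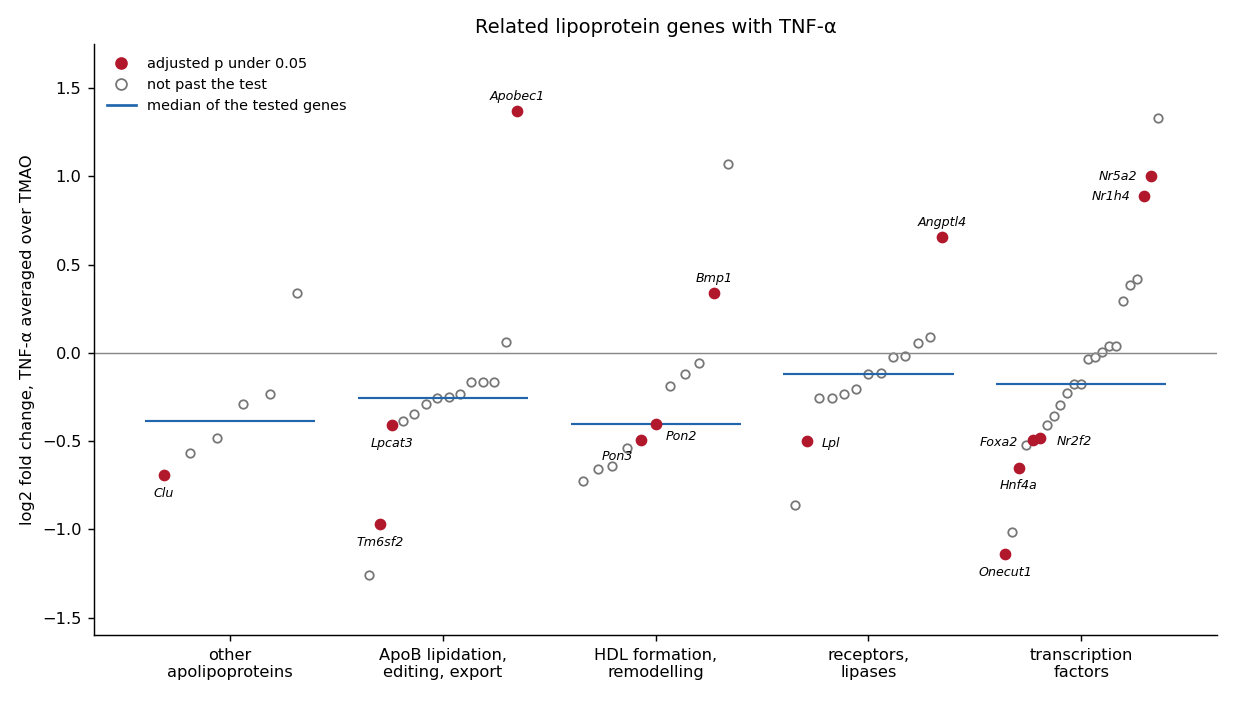
Log2 fold change with TNF-α, averaged over TMAO, for each tested gene of the 5 related lists, ordered by value (red, adjusted p under 0.05; open, not past the test; blue line, median). Apobec1 at 1.37 is the highest called gene and Onecut1 at -1.14 the lowest.

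The genes whose log2 CPM followed Mttp most closely over the 8 libraries, among 8752 genes of at least 10 CPM, were Blzf1 (Pearson r = 0.98), Mcm2 (0.97) and Slc31a1 (0.96). The 8 points include both the treatments and the library that stood apart, and all 3 genes, like Mttp, were lowest in TNF-α 16. Blzf1 ran from 27.7 to 33.9 CPM, Mcm2 from 330.4 to 377 CPM and Slc31a1 from 94.8 to 113 CPM.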

How the data were processed

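Gene expression was measured by mRNA sequencing of 8 Hepa1-6 libraries. Per the labels' protocols, RNA was extracted with Trizol, mRNA was selected on oligo beads and fragmented, and paired reads were sequenced. The authors deposited a table of counts per versioned Ensembl identifier, whose name names htseq as the counter, and a table of TPM per symbol made by another estimate. The build is mm9 per the submitters' processing notes. No source used here gives the aligner, annotation or strand setting. Symbols, exon lengths and overlaps came from GENCODE M21, to which 53229 of 54446 identifiers matched with version and 54409 without. Of the TPM symbols, 95 that occur more than once and 27 turned into dates were left out.

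Counts were tested with edgeR 4.0.16 in R 4.3.3 (filterByExpr, 15613 genes; TMM scaling; 4 group means over all 8 libraries with 4 residual degrees of freedom; glmQLFit, robust; Benjamini-Hochberg at 0.05 over all genes). CPM is the count over the kept-gene total times the TMM factor. DESeq2 1.42.0 and limma 3.58.1 (voom on counts, trend on log2(TPM + pseudocount)) were alternatives, with other scalings, filters, left-out libraries, a length offset and a replicate block. The programs were tested on simulated counts.

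The 10 genes and all lists were chosen with earlier results of these data known. Of each related list every called gene was named, and otherwise the 3 with the smallest p; 1 gene of those lists is not reported here and was left out of their counts. For Mttp, the only called gene of the 10, the 3 genes with the highest correlation were named. Promoter windows came from RefSeq on GRCm38.p6. Depth was 24736746 to 30488605 counts per library, and floors cover counting error only.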

Additional observations from a re-analysis of the deposited data

How the results depend on the processing

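Besides the values reported, 22 settings were tried. Over the fold changes of Apob, Apoe and Mttp in all 8 comparisons and of Apoa2 and Lcat in the 4 comparisons of TNF-α, 586 kept direction and side of the threshold, 57 passed in addition, 11 no longer passed and 12 reversed. These settings also moved the number of all genes passing. For TNF-α averaged over TMAO, 1437 genes passed in the fit reported, 1615 with DESeq2 and 1792 without a filter. With at least 1 CPM in 2 libraries 1361 passed, and with the length offset 2061. With only the groups compared, 4775 genes passed for both against TMAO and 2373 for both against control. The number of the 6 genes passing, which is not read as a result about the 6, moved as follows. For TNF-α averaged over TMAO it was 1, and 2 with DESeq2, 3 without a filter, 2 with at least 1 CPM in 2 libraries, 3 with the length offset, 3 with TNF-α 16 and control 14 both left out, and 0 to 5 leaving out 1 library. For TNF-α against control it was 0, 0 to 3 leaving out 1 library and 3 without TNF-α 16 and control 14. For both against TMAO it was 0, 1 with DESeq2, 1 without a filter, 1 with the length offset, 4 with only the groups compared, 4 without TNF-α 16 and control 14, and 0 to 2 leaving out 1 library. For both against control it was 0, 1 with DESeq2, without a filter, with the length offset and with only the groups compared, 2 without TNF-α 16 and control 14, and 0 to 1 leaving out 1 library. For both against TNF-α and for TMAO averaged it was 0 to 3 leaving out 1 library, and for the interaction 0 to 2. The cause was not tested, except that leaving out a TNF-α library takes the pair that differed most over all genes out of the shared spread.

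None of the reversed values passed the test. Leaving out 1 library, TMAO against control ran from -0.0056 (without control 14) to 0.56 for Apob and from -0.18 to 0.073 (without control 14) for Apoe, and both against control from -0.35 to 0.22 (without control 16) for Apob. Both against TNF-α ran from -0.00093 (without TNF-α 16) to 1.81 for Apob and from -0.77 to 0.0045 (without TNF-α 16) for Apoe, and the interaction from -0.25 to 1.56 for Apob and from -0.71 to 0.063 for Apoe, with the reversed end again without TNF-α 16. Without TNF-α 16 and control 14, TMAO against control was -0.0084 for Apob and 0.070 for Apoe, both against TNF-α was 0.0074 for Apoe, and TMAO averaged was -0.0032 for Apob and 0.039 for Apoe.

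Over all genes, calls ran from 1 (only the groups compared) to 7971 (without TNF-α 14) for TNF-α against control, 647 to 7444 for TNF-α averaged, 71 to 4832 for both against TMAO and 90 to 3703 for both against control. They ran from 0 to 48 for TMAO against control (48 without TNF-α 16 and control 14), and, each highest without TNF-α 14, from 0 to 8068 for both against TNF-α, 0 to 7308 for TMAO averaged and 0 to 5788 for the interaction. Besides that setting, the last 3 reached at most 12, 63 and 1. The labels do not say whether the numbers 14 and 16 pair the libraries. Differences of 16 and 14 correlated at -0.83 between control and TNF-α, 0.18 between TMAO and both, and -0.074 to 0.025 otherwise. With the replicate block 0 genes of the 6 passed for TNF-α averaged (Mttp -0.38, adjusted p = 0.068), and calls over all genes were 1011 for TNF-α averaged and 342 for TNF-α against control. A crossed pairing of control and TNF-α, chosen after seeing the data, gave 0 of the 6 and 557 of all genes.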
